A study of Mus musculus with 16 samples.

Results

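The libraries described here are the 8 of 16 single-nucleus RNA-seq libraries that were labelled *Ifnar1*-/-, 4 from mice given DMXAA and 4 from mice given vehicle. They were chosen by genotype and treatment alone. All 8 came from the hippocampus of male mice aged 3 months and 3 days, and the vehicle controls carried the same *Ifnar1*-/- genotype as the treated mice. The other 8 libraries came from C57BL/6 (WT) males aged 2 months and 23 days, 4 with each treatment, so genotype and age cannot be told apart. Per the study's methods, DMXAA or its vehicle of DMSO, PEG-400 and cyclodextrin was injected repeatedly into the peritoneum. The mice were perfused the day after the last injection, so the values describe a single time point after repeated dosing. Unique molecular identifiers (UMIs) were summed per library over all barcodes with at least 200 genes and at most 5% mitochondrial UMIs, which kept 66082 of 69921 barcodes of the 8 libraries. The comparison asked what STING activation changed in hippocampal tissue without type I interferon signalling.

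STING is an adaptor protein of the endoplasmic reticulum that binds cyclic dinucleotides made by the DNA sensor cGAS, and DMXAA binds the mouse form of STING directly. Activated STING recruits the kinase TBK1, which phosphorylates the transcription factor IRF3, and it also feeds into NF-κB. IRF3 switches on *Ifnb1* and a limited set of other genes directly. Secreted interferon-β then acts through the receptor chains IFNAR1 and IFNAR2 and the transcription factors downstream of them to induce the broad class of interferon-stimulated genes (ISGs). Without IFNAR1 this later step is closed to type I interferon, whereas STING, TBK1, IRF3 and NF-κB are still encoded.

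The *Ifnar1*-/- libraries kept 7400 to 9537 nuclei and 70085636 to 92680084 UMIs each. The number of nuclei was 8396 ± 761 with DMXAA and 8125 ± 727 with vehicle (SD, n = 4, two-sided exact permutation p = 0.629). Pairs of these libraries shared 9 to 34 barcode sequences, at most 0.46% of the smaller library. *Ifnar1* itself was at 10.0 to 12.5 CPM (UMIs of a gene scaled to a common library total) in the 8 *Ifnar1*-/- libraries and at 14.1 to 18.4 CPM in the 8 WT libraries, without overlap (two-sided exact permutation p = 1.55e-04, n = 8 each). The deposited counts are per gene and not resolved along it, so the UMIs that remain do not tell an intact from a disrupted transcript. The genotypes also differed over many genes. *Ifnar1*-/- libraries drew 6.5 to 8.2% of UMIs from genes spanning 10 to 30 kb, a class that includes *Ifnar1*. WT DMXAA replicate 3 drew 7.3% and the other WT libraries 10.0 to 11.1%. *Ifnar1* was lowest among WT libraries in WT DMXAA replicate 3, at 14.1 CPM. The part of this broad difference in the *Ifnar1* gap was not tested. One WT library, DMXAA replicate 3, stood apart, with 43.8% of its UMIs from genes spanning over 300 kb, and it enters the WT values below. The other WT libraries had 32.0% to 37.0% and the *Ifnar1*-/- libraries 41.1% to 45.6%.

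The promoters of the genes in question carry the binding motifs of the 2 arms of the pathway and are shown for that reason. An ISG promoter often holds the interferon-stimulated response element (ISRE), searched here by its core, GAAA and GAAA with any 2 bases between them, on both strands and with overlapping matches allowed. NF-κB binds the κB site, searched by its consensus on both strands. In RefSeq promoters on GRCm38.p6, from 250 bases before to 50 after each start, 3.44% of 32851 promoters held the ISRE core and 4.5% a κB match. Of the 68 listed ISGs with a promoter in that set, 34 held the ISRE core, as did 0 of the 24 matched NF-κB targets, of which 14 held a κB match. These are matches of letters and not measured binding. The 150 bases before the start are printed for 3 ISGs and 1 NF-κB target whose values follow. *Isg15* has its window at chr4:156200819-156200968 on the minus strand, *Ifit1* at chr19:34640739-34640888, *Ddx60* at chr8:61927937-61928086 and *Nfkbie* at chr17:45555550-45555699, all 3 on the plus strand. Capitals mark the ISRE core in the first 3, which reads on the opposite strand in *Ifit1*, and the κB match in *Nfkbie*.
Isg15: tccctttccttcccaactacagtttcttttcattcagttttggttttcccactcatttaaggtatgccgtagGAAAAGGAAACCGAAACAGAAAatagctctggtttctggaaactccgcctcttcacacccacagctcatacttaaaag
Ifit1: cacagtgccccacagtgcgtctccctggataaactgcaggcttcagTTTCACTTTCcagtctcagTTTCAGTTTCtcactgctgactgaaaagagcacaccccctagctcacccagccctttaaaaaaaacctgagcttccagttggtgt
Ddx60: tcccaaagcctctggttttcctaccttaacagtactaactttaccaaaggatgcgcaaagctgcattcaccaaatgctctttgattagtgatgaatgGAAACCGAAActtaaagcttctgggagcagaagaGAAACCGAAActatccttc
Nfkbie: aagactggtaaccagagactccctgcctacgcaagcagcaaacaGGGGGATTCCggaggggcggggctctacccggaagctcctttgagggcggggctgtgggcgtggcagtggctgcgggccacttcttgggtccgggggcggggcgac

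DMXAA left the ISGs of the *Ifnar1*-/- hippocampus near their vehicle level. The summed level of the 86 listed ISGs in the files was 297, 299, 304 and 302 CPM in vehicle replicates 1 to 4 and 326, 291, 311 and 313 CPM in DMXAA replicates 1 to 4. The groups overlapped, and the ratio of their means was 1.03. In WT libraries the same sum was 367, 381, 402 and 349 CPM with vehicle and 1249, 743, 516 and 676 CPM with DMXAA, all 4 above every vehicle library, at a ratio of 2.12. These sums alone do not tell more cells of a responding type from more RNA per cell. Nuclei with at least 3 microglial markers were 3.61 to 4.08% in WT vehicle libraries and 3.25 to 4.47% in WT DMXAA libraries, which overlapped. The part of cell makeup in the sums was not tested.

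Of the 88 ISGs on the list, 67 had enough UMIs to be tested in the *Ifnar1*-/- libraries. Their median log2 change with DMXAA was 0.02, against -0.01 over all 20424 genes tested, and 36 of the 67 were above 0 and 31 below. In WT the median of the same genes was 1.58. For 65 of the 67 the *Ifnar1*-/- estimate lay within 0.5 of 0, and for 62 its upper 95% bound was below the WT estimate. The latter leaves out the error of the WT estimate, and the interaction below tests the difference itself. Of the 67, 0 passed in *Ifnar1*-/- libraries by edgeR, which asked for a log2 change of more than 0.1 in size beside a Benjamini-Hochberg adjusted p under 0.05, as 0% of all genes did, and the lowest adjusted p on the list was 0.164. At an unadjusted p under 0.05, 5 were higher and 1 lower, against 11.6% higher and 8.49% lower over all genes. DESeq2 called 1 of them higher, *H2-D1*, and 0 lower, against 3.27% and 1.82% of all genes. It gave no adjusted p for some of the 67, among them *Isg15* and *Ifit1*, so these could not be called. The median half-width of the 95% interval was 0.41 on the log2 scale over these 67 genes. For a typical single ISG a smaller change could thus not be told from 0. Larger estimates also failed after adjustment, as *Isg15* did at 1.03 ± 0.35 (edgeR adjusted p = 0.181).

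**Figure D1:**
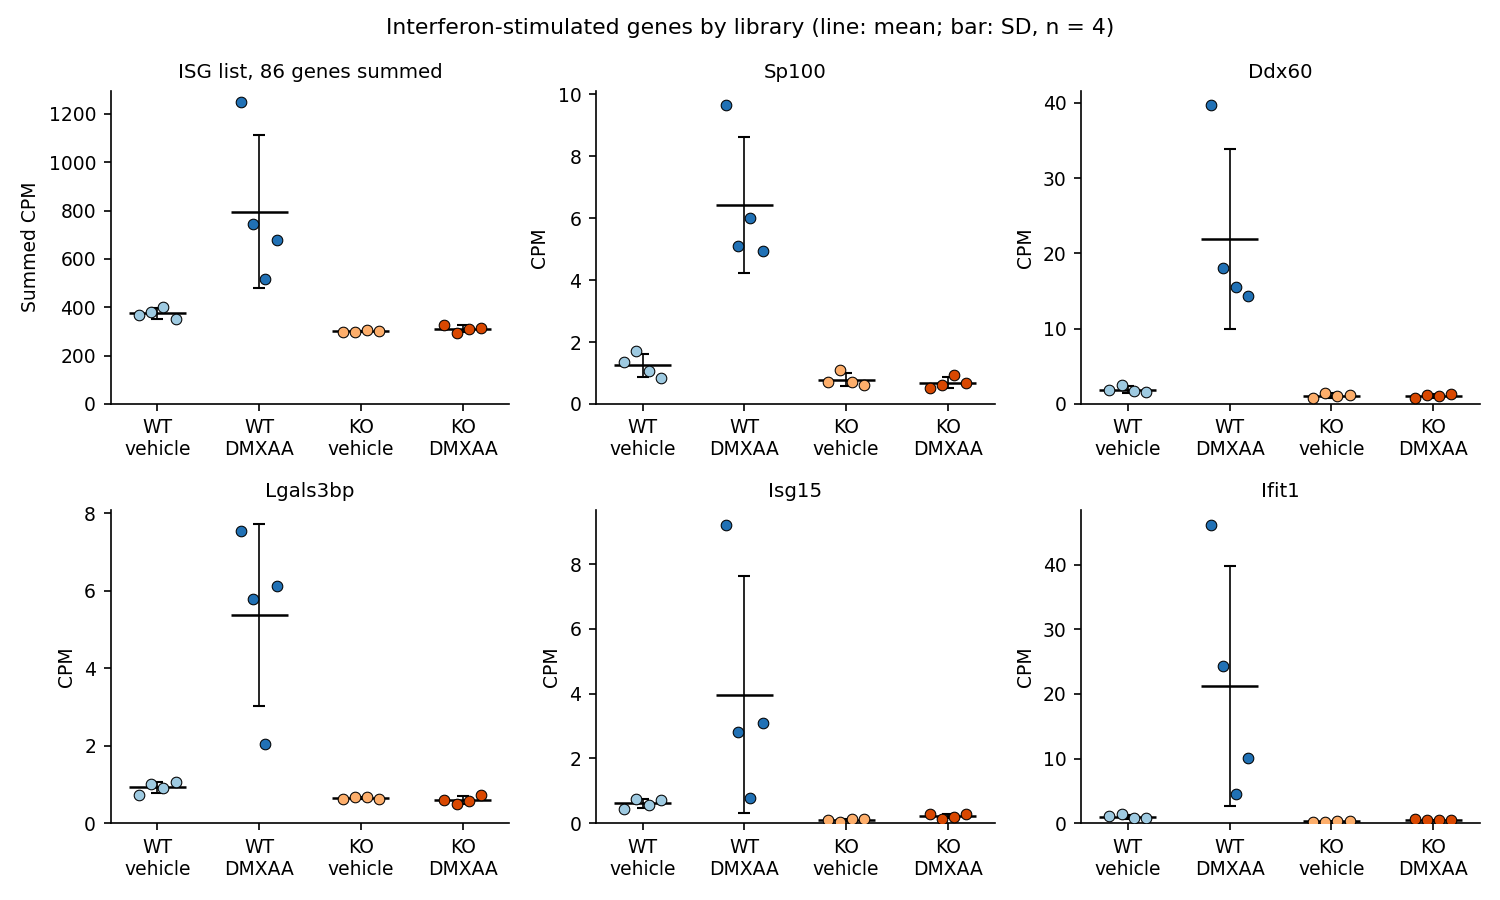
Level of the summed ISG list and of 5 ISGs in each library, in CPM on a linear axis from 0, with points for libraries, a line for the group mean and a bar for the SD (n = 4), where KO stands for *Ifnar1*-/-. In each panel every WT DMXAA library lies above every WT vehicle library and every *Ifnar1*-/- library, and the summed level is 291 to 326 CPM over the 8 *Ifnar1*-/- libraries.

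The other 19 ISGs in the files were too low to be tested in *Ifnar1*-/- libraries, and their UMIs were counted together. They had 71, 50, 84 and 65 UMIs in the vehicle libraries and 63, 61, 89 and 87 UMIs in the DMXAA libraries, which overlapped. In WT the same genes had 205 to 284 UMIs with vehicle and 1107 to 4176 with DMXAA. *Ifi213*, of the PYHIN family of nucleic acid sensors, had 130 to 477 UMIs in WT DMXAA libraries, and in the *Ifnar1*-/- libraries 2, 0, 1 and 2 UMIs with vehicle and 0, 1, 1 and 0 with DMXAA. *Oas1a*, a 2′-5′ oligoadenylate synthetase, had 38 to 118 UMIs in WT DMXAA libraries and 1, 0, 0 and 0 against 0, 0, 0 and 2 UMIs in the *Ifnar1*-/- libraries. These counts in *Ifnar1*-/- tissue were at the edge of detection with either treatment, so no fold is given.

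*Sp100*, *Ddx60* and *Lgals3bp* were chosen for the size of the difference between genotypes, so a small *Ifnar1*-/- estimate beside a large WT rise follows from the choice, and their values are a description. *Isg15*, *Ifit1* and *H2-D1* had higher *Ifnar1*-/- estimates and are described further on. They were chosen for a low *Ifnar1*-/- p on their lists, so estimates further from 0 follow from that choice. *Sp100*, a component of nuclear bodies, was at 0.694, 1.08, 0.723 and 0.601 CPM in *Ifnar1*-/- vehicle libraries and at 0.528, 0.619, 0.929 and 0.679 CPM in DMXAA libraries. The groups overlapped, with a log2 change of -0.25 ± 0.25 (SE, 95% interval -0.80 to 0.30), whereas in WT *Sp100* rose by 2.44 ± 0.30 (edgeR adjusted p = 0.0267). *Ddx60*, an RNA helicase of antiviral defence with a pair of ISRE cores in the printed window, was at 0.763, 1.48, 1.02 and 1.13 CPM with vehicle and at 0.77, 1.13, 1.02 and 1.27 CPM with DMXAA. The DMXAA values of *Ddx60* lay inside the vehicle range, with a log2 change of -0.15 ± 0.24, and without vehicle replicate 2 the estimate turned to 0.06. In WT it was at 1.56 to 2.52 CPM with vehicle and 14.3 to 39.7 CPM with DMXAA and rose by 3.58 ± 0.34 (edgeR adjusted p = 0.0265). *Lgals3bp*, a secreted galectin-binding glycoprotein, was at 0.613 to 0.68 CPM with vehicle and 0.495 to 0.729 CPM with DMXAA in *Ifnar1*-/- libraries (log2 change -0.21 ± 0.16), and rose by 2.54 ± 0.31 in WT (edgeR adjusted p = 0.0267).

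In WT tissue 23 of 21207 genes rose by the same edgeR rule (0.108%) and 0 fell, and 18 of the 23 were on the ISG list. Of the 23, 14 could be tested in *Ifnar1*-/- libraries. Their *Ifnar1*-/- log2 changes ranged from -0.48 to 0.21 with a median of -0.08, against a WT median of 2.30, which is high by the choice of the genes. All 14 had an upper 95% bound in *Ifnar1*-/- libraries below their WT estimate, and the highest of these bounds was 0.85. A bound below a WT estimate follows in part from the same choice, and it leaves out the error of the WT estimate. Of the 14, 0 separated the *Ifnar1*-/- DMXAA libraries from the vehicle libraries, against 6.46% of all genes higher and 2.58% lower. The summed UMIs of all 23 genes were 2164, 2043, 2656 and 2472 in *Ifnar1*-/- vehicle libraries and 1986, 2011, 2679 and 2649 in DMXAA libraries. Most of these UMIs came from the 14 tested genes. The 9 others, among them *Lcn2*, had 20, 17, 21 and 21 UMIs with vehicle and 21, 25, 28 and 43 with DMXAA. Before scaling to library size these groups met at 21 UMIs. In WT the same 9 genes had 71 to 107 UMIs with vehicle and 762 to 1881 with DMXAA. The WT calls depended on single libraries: 0 genes were called without any 1 of the 4 vehicle replicates or without DMXAA replicate 2, 36 without DMXAA replicate 1 and 68 without DMXAA replicate 3.

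The difference between the DMXAA effects in the genotypes was tested directly as an interaction over all 16 libraries. It passed for 11 of 21648 genes, 10 with a lower effect in *Ifnar1*-/- (0.0462% of genes tested) and 1 with a higher effect (0.00462%). Among the 10 were *Ddx60*, *Lgals3bp*, *Sp100*, *Iigp1*, *Slfn5*, *Eif2ak2*, *Trim30a*, *Xaf1* and *B2m*, each on the ISG list. The interaction of *Ddx60* was -3.71 ± 0.43 (log2, SE, edgeR adjusted p = 0.00437) and that of *Lgals3bp* -2.73 ± 0.35 (edgeR adjusted p = 0.00748). *Sp100* differed by -2.69 ± 0.40, *Iigp1*, an immunity-related GTPase, by -2.61 ± 0.38 and *Slfn5*, of the Schlafen family, by -2.59 ± 0.41 (edgeR adjusted p = 0.0175, 0.0175 and 0.0269). The 11th gene was *Fcrls*, a microglial Fc receptor-like gene, at 3.29 to 4.7 CPM with vehicle and 4.62 to 5.57 CPM with DMXAA in *Ifnar1*-/- libraries. Its estimates had opposite signs, 0.25 ± 0.11 in *Ifnar1*-/- and -1.16 ± 0.21 in WT, with an interaction of 1.42 ± 0.24 (edgeR adjusted p = 0.0458). This call rested on single libraries: 0 interactions were called with a higher effect in *Ifnar1*-/- without any 1 of the 8 *Ifnar1*-/- libraries, without WT vehicle replicates 1, 3 or 4 or without WT DMXAA replicate 2. The number of interactions called in all ran from 3 to 34 when single libraries were left out, with 34 without WT DMXAA replicate 3 and 28 without WT DMXAA replicate 1. It was 20 without WT DMXAA replicate 4, 24 without WT vehicle replicate 2 and 3 or 4 without WT vehicle replicates 1, 3 or 4, *Ifnar1*-/- vehicle replicates 2 or 3 or *Ifnar1*-/- DMXAA replicates 1, 2 or 3.

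**Figure D2:**
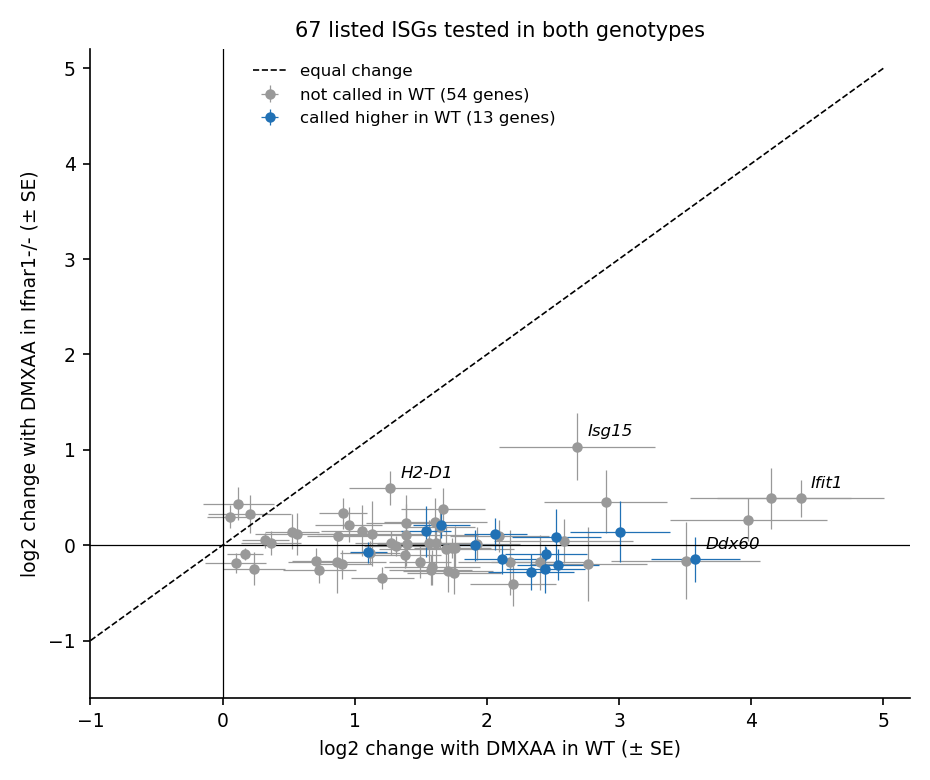
Change of 67 listed ISGs with DMXAA in *Ifnar1*-/- (vertical axis, log2) against WT (horizontal axis, log2), with SE bars, 13 genes called higher in WT and 54 others. Most points run along the horizontal axis below the dashed line of equal change, with *Isg15* highest in *Ifnar1*-/- at 1.03. *Isg15* passed the low-count filter only with its DMXAA libraries counted.

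The direct targets of IRF3 are the antiviral genes that STING could reach without the interferon receptor. Of 12 listed, 6 could be tested, with a median log2 change of 0.15. At an unadjusted p under 0.05, 2 were higher and 0 lower, against 11.6% and 8.49% of all genes. The 2 were *Isg15* and *Ifit1*. Of the 6, 1 separated the groups upward, against 6.46% of all genes. By edgeR 0 were called, as over all genes, and by DESeq2 0, against 3.27% higher and 1.82% lower. DESeq2 gave no adjusted p for *Isg15*, *Ifit1* and *Ccl5*, so it could not call them. *Isg15*, a ubiquitin-like modifier, had 8, 3, 13 and 10 UMIs in *Ifnar1*-/- vehicle libraries and 20, 10, 19 and 22 UMIs in DMXAA libraries. At 0.0426 to 0.14 CPM with vehicle and 0.124 to 0.285 CPM with DMXAA, the groups overlapped at DMXAA replicate 2, with a log2 change of 1.03 ± 0.35 (unadjusted p = 0.0147, edgeR adjusted p = 0.181). The vehicle libraries of *Isg15* alone would not have passed the low-count filter, so its estimate is a description. WT libraries held 33 to 65 *Isg15* UMIs with vehicle and 70 to 635 with DMXAA.

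*Ifit1*, which binds foreign RNA ends, separated the groups: it was at 0.254, 0.256, 0.367 and 0.397 CPM with vehicle and at 0.571, 0.421, 0.465 and 0.453 CPM with DMXAA in *Ifnar1*-/- libraries. All 4 DMXAA libraries lay above all 4 vehicle libraries, at a log2 change of 0.49 ± 0.20 (edgeR adjusted p = 0.215), and its WT levels were 0.771 to 1.39 CPM with vehicle and 4.49 to 46.2 CPM with DMXAA. *Ifit2*, of the same family, was at 1.74 to 2.31 CPM with vehicle and 1.54 to 2.01 CPM with DMXAA (log2 change -0.26 ± 0.14), on the other side of 0. *Ifnb1* had 1 UMI in all 8 *Ifnar1*-/- libraries together, in DMXAA replicate 4, and 0 UMIs in all 8 WT libraries. Times closer to an injection were not sampled. *Cxcl10*, a chemokine, had 2, 2, 2 and 2 UMIs in the vehicle libraries and 1, 0, 3 and 7 in the DMXAA libraries, and *Ccl5*, another chemokine, was at 0.213 to 0.36 CPM with vehicle and 0.273 to 0.485 CPM with DMXAA. Both chemokines overlapped between the groups.

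Among the other ISGs, *H2-D1*, a classical MHC class I heavy chain, was at 1.24 to 2.5 CPM with vehicle and 2.45 to 3.58 CPM with DMXAA, overlapping, with a log2 change of 0.60 ± 0.18 (edgeR adjusted p = 0.164, DESeq2 adjusted p = 0.0342). *Rtp4*, a chaperone of G protein-coupled receptors, lay lower in all 4 DMXAA libraries, at 3.02, 2.65, 2.32 and 2.89 CPM against 3.19, 3.27, 3.39 and 3.12 CPM with vehicle (log2 change -0.34 ± 0.11, edgeR adjusted p = 0.179). Genes spanning up to 10 kb, as *Isg15*, *Ifit1* and *H2-D1* do, had a median log2 change of 0.14 and an upper quartile of 0.34 in *Ifnar1*-/- libraries, below the estimates of all 3. These 3 genes were chosen for a low p, so this position follows in part from the choice. A pair of refits was added after seeing the data. With the trend of level on gene span removed from each library, the log2 changes of the 3 genes were 0.83 ± 0.30, 0.38 ± 0.17 and 0.44 ± 0.13. With the share of UMIs from genes spanning over 300 kb as a covariate, they were 0.37 ± 0.47, 0.26 ± 0.27 and 0.26 ± 0.23. The part of gene length and of that share in these values was not tested beyond these refits.

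The STING pathway itself was measured for 13 of 14 listed components, with 0 called and a median log2 change of 0.08. At an unadjusted p under 0.05, 3 were higher and 0 lower, against 11.6% and 8.49% over all genes. *Sting1*, listed in the files as *Tmem173*, was at 0.37, 0.512, 0.615 and 0.457 CPM with vehicle and at 0.528, 0.731, 0.80 and 0.918 CPM with DMXAA. The groups overlapped at DMXAA replicate 1, with a log2 change of 0.53 ± 0.22 (edgeR adjusted p = 0.231). The kinase *Tbk1* was at 34.6 to 42.1 CPM with vehicle and 40.1 to 49.2 CPM with DMXAA (log2 change 0.18 ± 0.06, edgeR adjusted p = 0.176). *Irf3* was at 4.26 to 7.43 CPM and 6.09 to 10.0 CPM (log2 change 0.38 ± 0.16, edgeR adjusted p = 0.236). Both also overlapped between the groups. With the long-gene share as a covariate the log2 changes of *Tmem173*, *Tbk1* and *Irf3* were 0.70 ± 0.33, 0.08 ± 0.07 and -0.04 ± 0.17. With the length trend removed they were 0.39 ± 0.23, 0.21 ± 0.06 and 0.22 ± 0.11. Of the 24 listed interferons, interferon receptor chains and their kinases, 9 could be tested, and 9 more had no UMI in any *Ifnar1*-/- library. *Il10rb*, a receptor chain shared by IL-10 and type III interferon, had the lowest p of the 9, at 2.77 to 3.6 CPM with vehicle and 2.66 to 3.27 CPM with DMXAA (log2 change -0.29 ± 0.12, edgeR adjusted p = 0.224).

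NF-κB is the other arm that does not need the receptor. Of 34 listed NF-κB targets, 24 could be tested. Their median log2 change was 0.02, 0 were called by edgeR and 1 by DESeq2 (higher, against 3.27% of all genes), and 3 were higher and 3 lower at an unadjusted p under 0.05, close to the shares over all genes. DESeq2 gave no adjusted p for *Nfkbie*, so it could not call that gene. Of the 24, 1 separated the groups upward and 1 downward, against 6.46% and 2.58% of all genes. The estimates of the 24 ran from -0.55 to 0.76. The 3 with the lowest p, *Nfkbie*, *Ptgs2* and *Nfkb2*, were the 3 that were higher, and only these are described. *Nfkbie*, the inhibitor IκBε whose κB match is printed above, separated the groups upward. It was at 0.266, 0.199, 0.302 and 0.24 CPM with vehicle and at 0.599, 0.359, 0.465 and 0.415 CPM with DMXAA, a log2 change of 0.76 ± 0.21 (unadjusted p = 0.00436, edgeR adjusted p = 0.157). These levels rested on 14 to 28 UMIs per vehicle library and 29 to 43 per DMXAA library.

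*Ptgs2*, the inducible cyclooxygenase, was at 2.53 to 4.0 CPM with vehicle and 3.55 to 6.45 CPM with DMXAA (log2 change 0.56 ± 0.17, edgeR adjusted p = 0.168, DESeq2 adjusted p = 0.0411). *Nfkb2*, the precursor of p52, was at 0.981 to 2.2 CPM and 1.77 to 2.97 CPM (log2 change 0.61 ± 0.22, edgeR adjusted p = 0.192). Both overlapped between the groups. With the long-gene share as a covariate the log2 changes of *Nfkbie*, *Ptgs2* and *Nfkb2* were 0.43 ± 0.28, 0.11 ± 0.17 and 0.20 ± 0.29. Removing the length trend instead gave 0.63 ± 0.19, 0.43 ± 0.14 and 0.48 ± 0.18. At this single time point after repeated dosing the classical feedback genes stayed near 0. *Nfkbia*, which encodes IκBα, was at 3.21 to 4.37 CPM and 3.76 to 4.25 CPM (log2 change -0.03 ± 0.11, 95% interval -0.28 to 0.21), and *Tnfaip3*, which encodes the deubiquitinase A20, was at 1.16 to 1.62 CPM and 1.31 to 1.99 CPM (log2 change 0.12 ± 0.16, 95% interval -0.24 to 0.48). *Tnf*, an inflammatory cytokine, had 1, 7, 3 and 2 UMIs with vehicle and 0, 1, 2 and 3 with DMXAA and was not tested.

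**Figure D3:**
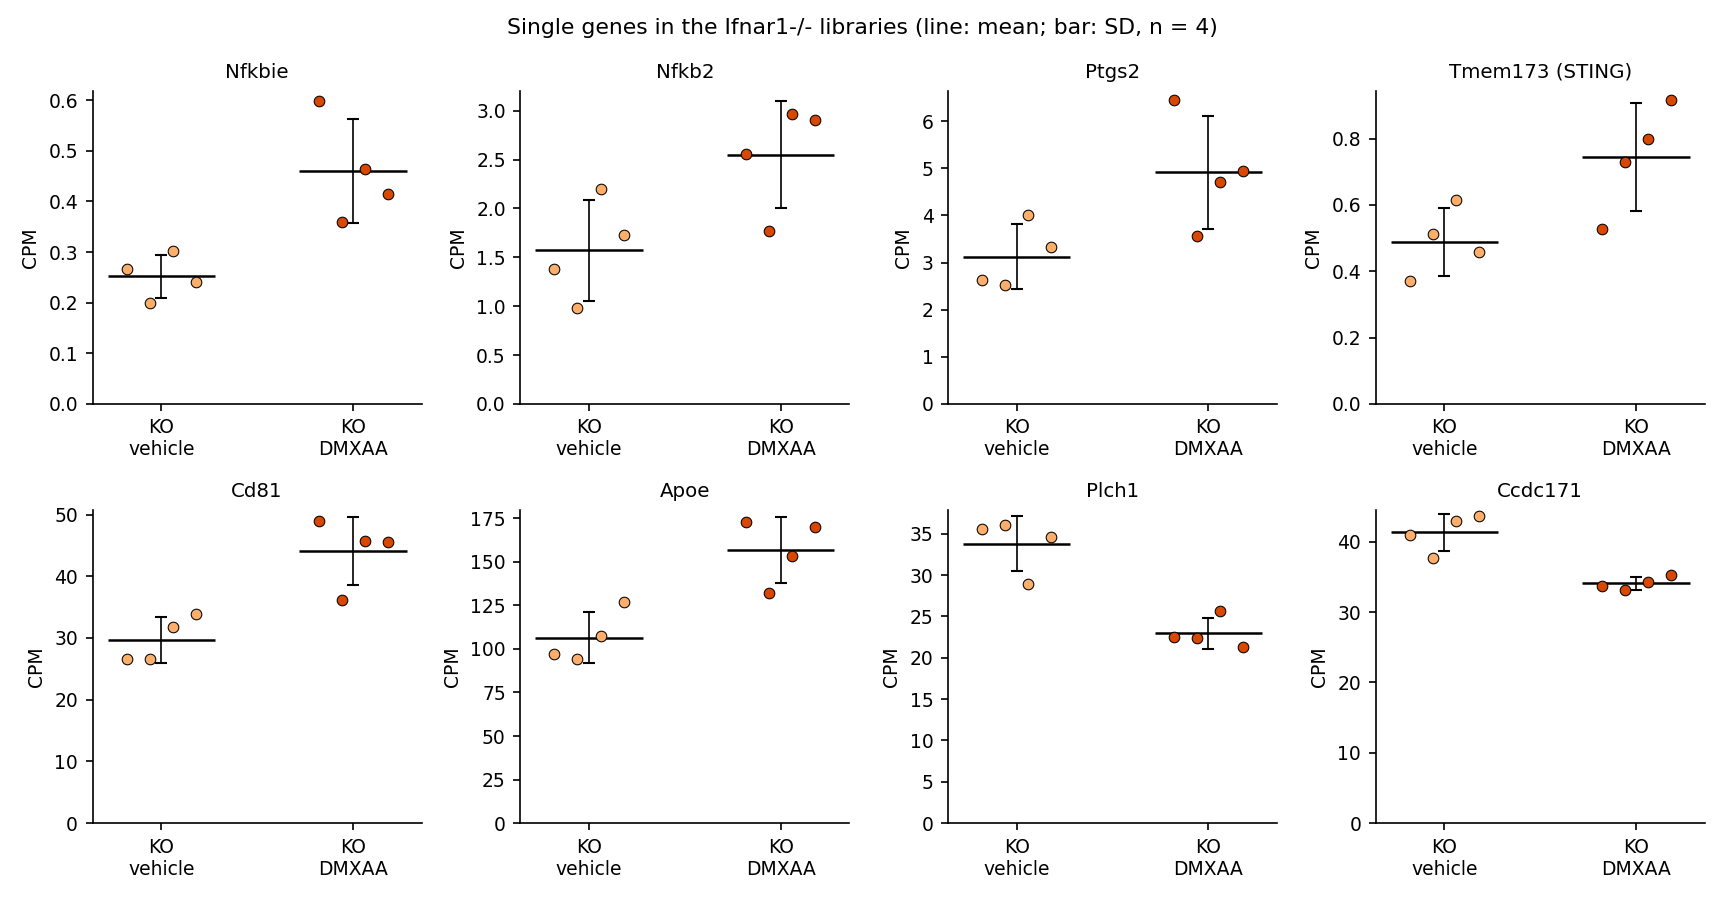
Level of 8 genes in the 4 vehicle and 4 DMXAA libraries of *Ifnar1*-/- mice, in CPM on a linear axis from 0, with points for libraries, a line for the group mean and a bar for the SD. *Nfkbie*, *Cd81*, *Apoe*, *Plch1* and *Ccdc171* separate the groups, whereas *Nfkb2*, *Ptgs2* and *Tmem173* overlap. *Cd81*, *Apoe*, *Plch1* and *Ccdc171* were chosen among genes that separate the groups, and the other genes shown were not.

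Across all 20424 genes tested in *Ifnar1*-/- libraries, edgeR called 0, limma-trend called 0 and DESeq2 called 1040, 668 higher (3.27%) and 372 lower (1.82%). At an unadjusted p under 0.05 edgeR had 4100 genes, 2365 higher and 1735 lower, and the lowest adjusted p was 0.156. In 1320 genes all 4 DMXAA libraries lay above all 4 vehicle libraries, and in 527 they lay below. The genes named next had the lowest unadjusted p among those that separated the groups.

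The 10 highest by this rule were *Ngp*, *Gm47134*, *Cd81*, *Bmp1*, *Atg16l2*, *Gm9774*, *Tmem59l*, *Csmd2os*, *Ptov1* and *Apoe*, with log2 changes from 0.33 to 1.92. *Ngp*, which sets the upper end, and *Gm9774* passed the low-count filter only through their DMXAA libraries, so their rank is a description. *Ngp* had 5 to 7 UMIs per vehicle library and 16 to 35 with DMXAA, and *Gm9774* had 3 to 6 and 12 to 15. *Cd81*, a tetraspanin of the cell surface, was at 26.6, 26.6, 31.8 and 33.9 CPM with vehicle and at 48.9, 36.2, 45.8 and 45.5 CPM with DMXAA (log2 change 0.48 ± 0.08, edgeR adjusted p = 0.156, DESeq2 adjusted p = 1.78e-04). *Apoe*, the main lipid carrier of the brain, was at 97.2, 94.3, 107 and 127 CPM with vehicle and at 173, 132, 153 and 169.8 CPM with DMXAA (log2 change 0.47 ± 0.09, edgeR adjusted p = 0.156, DESeq2 adjusted p = 5.76e-04). In both genes DMXAA replicate 2 was the lowest of the DMXAA libraries, and it lay above every vehicle library by the choice of the genes. *Bmp1*, a secreted procollagen protease, was at 18.3 to 22 CPM and 24.8 to 28.5 CPM (log2 change 0.33 ± 0.05), and *Atg16l2*, a relative of the autophagy gene *Atg16l1*, was at 24.7 to 28.2 CPM and 31.4 to 42.9 CPM (log2 change 0.39 ± 0.07). In WT the log2 changes of *Cd81*, *Apoe*, *Bmp1* and *Atg16l2* were -0.13, -0.12, -0.15 and 0.04. WT DMXAA replicate 3 stood apart, with *Cd81* at 14.5 CPM against 70.7 to 82.7 CPM in the other 3 WT DMXAA libraries and 51 to 76.1 CPM with vehicle. *Apoe* was at 57.1 CPM there, against 242 to 322 CPM and 169 to 290.1 CPM. Without that library the WT log2 changes of the 4 genes were 0.16 ± 0.12, 0.17 ± 0.17, -0.30 ± 0.12 and 0.19 ± 0.08. The interaction did not pass for any of the 4 genes, with edgeR adjusted p of 0.762, 0.772, 0.532 and 0.762.

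The 10 lowest were *Ccdc171*, *Plch1*, *Syn3*, *4930452B06Rik*, *Gm31557*, *Slco1b2*, *A830031A19Rik*, *5430402O13Rik*, *Stra6* and *5031425E22Rik*, with log2 changes from -1.15 to -0.36. *Ccdc171*, which encodes a coiled-coil protein, was at 41, 37.7, 42.9 and 43.7 CPM with vehicle and at 33.7, 33.1, 34.3 and 35.2 CPM with DMXAA (log2 change -0.36 ± 0.05, edgeR adjusted p = 0.156, DESeq2 adjusted p = 2.55e-07). *Plch1*, a phospholipase C, was at 35.6, 36.1, 29 and 34.6 CPM with vehicle and at 22.5, 22.4, 25.6 and 21.3 CPM with DMXAA (log2 change -0.65 ± 0.10, edgeR adjusted p = 0.156). By the choice of the genes, each DMXAA library of both lay below each vehicle library. *Syn3*, a synaptic vesicle phosphoprotein, was at 252 to 281 CPM with vehicle and 206 to 216 CPM with DMXAA (log2 change -0.45 ± 0.08), and *Stra6*, a receptor for retinol-binding protein, was at 13.4 to 17.8 CPM and 9.66 to 12.1 CPM (log2 change -0.62 ± 0.11). *Slco1b2*, an organic anion transporter, was at 1.63 to 2.52 CPM and 0.951 to 1.43 CPM (log2 change -1.03 ± 0.19).

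Gene span moved with the DMXAA effect in *Ifnar1*-/- libraries. The median log2 change was 0.14 over 5846 genes spanning up to 10 kb, 0.02 over 6321 genes of 10 to 30 kb, -0.06 over 5486 genes of 30 to 100 kb, -0.12 over 2159 genes of 100 to 300 kb and -0.16 over 596 genes above 300 kb. Without each library in turn the first of these medians was 0.09 to 0.19 and the last -0.21 to -0.12. In WT the medians went from -0.02 for the shortest genes to 0.10 for the longest, but this direction rested on WT DMXAA replicate 3, and without that library they went from 0.12 to -0.14, the direction seen in *Ifnar1*-/-. WT DMXAA replicate 3 drew 43.8% of its UMIs from genes over 300 kb and 5.09% from genes up to 10 kb. The other 3 WT DMXAA libraries drew 32 to 33.4% and 12.5 to 14.6%, and the WT vehicle libraries 34.7 to 37% and 9.95 to 11.6%. Of the shortest genes 20% were higher and 2.94% lower at an unadjusted p under 0.05 in *Ifnar1*-/- libraries, and of the longest 1.01% were higher and 26% lower. DESeq2 called 304 higher and 23 lower up to 10 kb, and 2 higher and 33 lower above 300 kb.

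Genes spanning over 300 kb gave 45.6, 45.4, 44.5 and 44.5% of UMIs in the *Ifnar1*-/- vehicle libraries and 41.1, 44.9, 42 and 42.8% in the DMXAA libraries. DMXAA replicate 2 lay inside the vehicle range and the other 3 below it (two-sided exact permutation p = 0.0857, adjusted over 9 library measures 0.257, n = 4 each). *Malat1*, a nuclear-retained noncoding RNA, made up 1.23% to 2.15% of UMIs with vehicle and 1.89% to 3.11% with DMXAA (exact permutation p = 0.0857, adjusted 0.257). Barcodes over 5% mitochondrial UMIs were 7.16% ± 2.62 of barcodes with vehicle and 3.86% ± 1.74 with DMXAA (SD, exact permutation p = 0.114, adjusted 0.257). The part of these library measures in single gene estimates was looked at only by refitting. With the length trend taken out of each library, edgeR called 0 genes and had 3717 at an unadjusted p under 0.05. With the long-gene share as a covariate it called 0 and had 481, or 2.36% of genes. Under the covariate the log2 changes were 0.28 ± 0.08 for *Cd81*, 0.32 ± 0.11 for *Apoe*, -0.30 ± 0.07 for *Ccdc171* and -0.53 ± 0.15 for *Plch1*. With the length trend removed they were 0.42 ± 0.06, 0.28 ± 0.06, -0.21 ± 0.06 and -0.50 ± 0.09. Under the covariate the estimates of the 10 highest genes ran from 0.23 to 2.15 and those of the 10 lowest from -1.04 to -0.21, each with the sign it had before. These genes were chosen for separating the groups, so the kept sign follows in part from the choice. The long-gene share itself went largely with treatment, so this refit tells the 2 apart only in part.

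**Figure D4:**
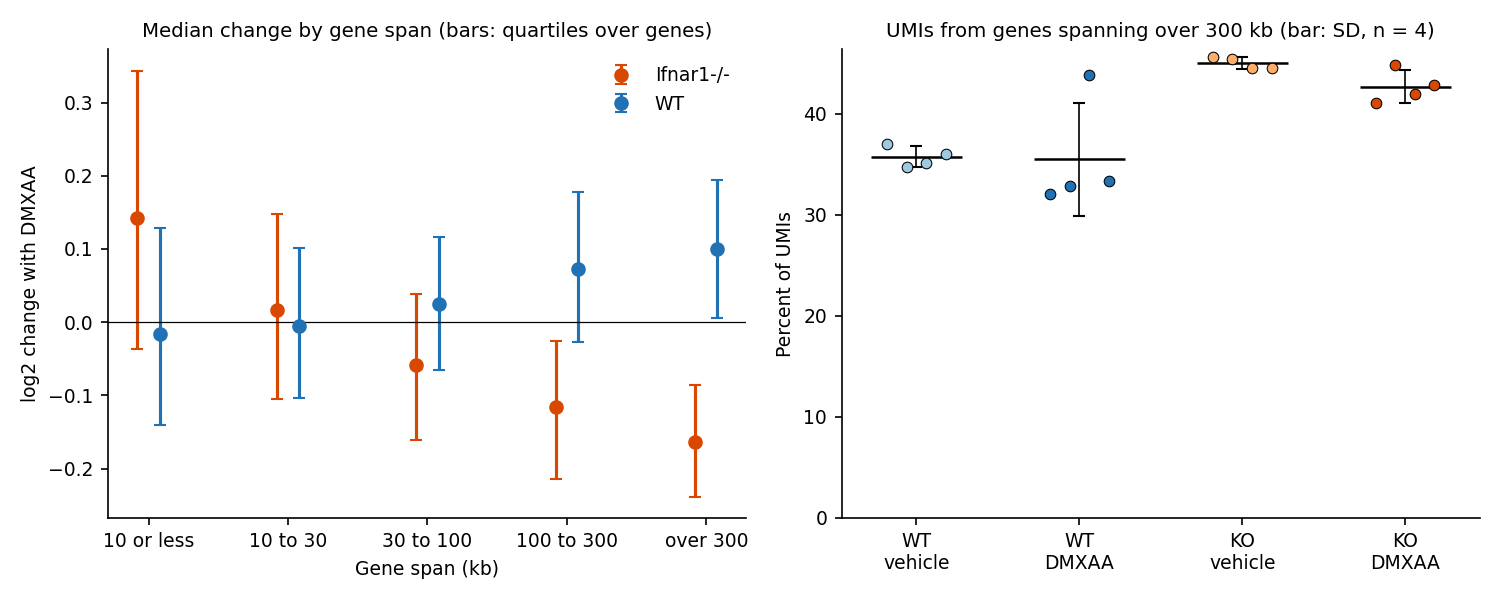
Left, median log2 change with DMXAA by gene span in kb for *Ifnar1*-/- and WT, with bars for the quartiles over genes. Right, percent of UMIs from genes spanning over 300 kb in each library, on an axis from 0, with mean and SD (n = 4, KO stands for *Ifnar1*-/-). The *Ifnar1*-/- medians go from 0.14 to -0.16 with span, the WT direction rests on WT DMXAA replicate 3 (the highest WT point on the right), and 3 of 4 *Ifnar1*-/- DMXAA libraries lie below all 4 vehicle libraries.

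Defining markers of neurons and glia were present in all 8 *Ifnar1*-/- libraries. Nuclei with at least 3 of the listed markers made up 28.1 to 37.2% of nuclei for excitatory neurons, 12.8 to 15.1% for astrocytes, 13.5 to 18.5% for oligodendrocytes and 3.46 to 4.28% for microglia. Thalamic and striatal markers were also present, in 2.18 to 5.72% of nuclei, with the highest share in DMXAA replicate 4. Markers of choroid plexus, which borders the hippocampus, were in 0.0135% of the nuclei of vehicle replicate 1, against 0.189 to 2.91% in the other 7. The part of these shares in the gene estimates was not tested.

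The endothelial markers had estimates below 0 with DMXAA in *Ifnar1*-/- tissue, and none passed by edgeR. All 6 listed markers were tested, with a median log2 change of -0.55, and all 6 were below 0. Of the 6, 4 were lower at an unadjusted p under 0.05, against 8.49% of all genes, and 0 were called by edgeR and 3 by DESeq2, which called 1.82% of all genes lower. Their summed level was 28.6, 34.8, 37.7 and 25.1 CPM with vehicle and 23.5, 20.1, 21.3 and 24.4 CPM with DMXAA, so the groups did not overlap, but vehicle replicate 4 and DMXAA replicate 4 lay close together. The ratio of means was 0.708, and 0.663 to 0.758 without each library in turn. Nuclei with at least 3 endothelial markers were 0.568, 0.507, 0.665 and 0.382% of nuclei with vehicle and 0.363, 0.373, 0.378 and 0.349% with DMXAA. These shares did not overlap, but 0.382% and 0.378% lay close together. The numbers of nuclei were small, 42, 39, 60 and 32 with vehicle and 29, 30, 36 and 28 with DMXAA, and these counts overlapped. In WT the 6 markers had a median log2 change of 0.27, with 0 called, and nuclei with at least 3 of them were 0.182, 0.358, 0.249 and 0.195% with vehicle and 0.0955, 0.257, 0.311 and 0.215% with DMXAA, which overlapped. Markers of ependyma and choroid plexus also had medians below 0 in *Ifnar1*-/- tissue. The 6 ependymal markers had a median of -0.52, 1 was called lower by DESeq2, and they summed to 56 to 101 CPM with vehicle and 44.9 to 72.2 CPM with DMXAA, at a ratio of means of 0.753. The 6 choroid plexus markers had a median of -0.51 and summed to 9.37 to 186 CPM and 24.8 to 134 CPM, at a ratio of 0.76. Both of these sums overlapped between the groups. The 4 erythroid markers tested ran from -5.05 to 0.57 with a median of -4.37, and DESeq2 called 3 of them lower. The 5 listed summed to 46.1 CPM in vehicle replicate 1, 10.2 to 12.4 CPM in the other vehicle libraries and 10.4 to 14.7 CPM with DMXAA. The part of tissue makeup in the endothelial values was not tested.

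*Flt1*, a receptor for vascular endothelial growth factor, was at 10.2, 10.3, 10.9 and 6.74 CPM with vehicle and at 7.65, 5.73, 6.98 and 7.11 CPM with DMXAA (log2 change -0.57 ± 0.15, edgeR adjusted p = 0.156). *Pecam1*, an endothelial junction protein, was at 3.04 to 3.6 CPM and 1.88 to 2.74 CPM (log2 change -0.51 ± 0.15), and *Adgrl4*, an adhesion receptor of endothelium, was at 3.11 to 6.5 CPM and 2.6 to 3.99 CPM (log2 change -0.73 ± 0.24). *Pecam1* separated the groups, whereas *Flt1* and *Adgrl4* overlapped at vehicle replicate 4. With the long-gene share as a covariate the log2 changes of *Flt1*, *Pecam1* and *Adgrl4* were -0.62 ± 0.25, -0.30 ± 0.21 and -0.42 ± 0.34. Removing the length trend instead gave -0.43 ± 0.15, -0.41 ± 0.13 and -0.63 ± 0.22. The 6 mural markers ran from -0.86 to 0.32 with a median of -0.16, on both sides of 0, and 2 were lower at an unadjusted p under 0.05 and 0 higher, against 8.49% and 11.6% of all genes, while DESeq2 called 2 lower, against 1.82%. The 2 lower were the pericyte genes *Abcc9* and *Rgs5*, with log2 changes of -0.86 ± 0.23 and -0.53 ± 0.16, -0.50 ± 0.35 and -0.27 ± 0.23 with the covariate and -0.74 ± 0.20 and -0.50 ± 0.16 with the length trend removed. The summed mural level had a ratio of means of 1.01.

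The list of vascular activation genes had a median log2 change of 0.01. Of its 15 tested members, 4 were higher and 1 lower at an unadjusted p under 0.05, against 11.6% and 8.49% over all genes. Of the same members 0 were called by edgeR and 3 were called higher by DESeq2, as were 3.27% of all genes. The groups were separated upward by 3 and downward by 1, against 6.46% and 2.58% of all genes. The estimates ran from -0.999 to 0.62. The 3 members with the lowest p are described next, and all 3 were higher. *Ackr1*, a chemokine-binding receptor of venules, was at 3.87, 2.49, 3.85 and 3.88 CPM with vehicle and at 5.62, 4.53, 6.01 and 5.62 CPM with DMXAA (log2 change 0.54 ± 0.13, edgeR adjusted p = 0.156). *Angpt2*, a ligand that destabilises vessels, was at 10.7 to 17 CPM and 18.4 to 21.3 CPM (log2 change 0.42 ± 0.11). Both separated the groups. *Tek*, the receptor of the angiopoietins, was at 4.36 to 7.91 CPM and 6.86 to 11.7 CPM (log2 change 0.60 ± 0.17), overlapping. The refits of *Tek* differed, with 0.12 ± 0.16 under the long-gene share as a covariate and 0.71 ± 0.20 with the length trend removed. Under the covariate *Ackr1* was at 0.40 ± 0.19 and *Angpt2* at 0.29 ± 0.16. With the length trend removed they were at 0.33 ± 0.09 and 0.47 ± 0.12. *Ackr1* UMIs lay in 165 to 500 nuclei per library and *Tek* UMIs in 200 to 829, more than the nuclei with endothelial markers, so they cannot be placed on endothelium here.

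Granulocyte genes were at very low levels and were seen in few nuclei. *Ngp*, a neutrophil granule protein, had 7, 6, 5 and 6 UMIs with vehicle and 16, 20, 24 and 35 UMIs with DMXAA, separating the groups (log2 change 1.92 ± 0.32, edgeR adjusted p = 0.156). It passed the low-count filter only through its DMXAA libraries. It was also chosen among genes that separate the groups, so these *Ngp* values are a description. Up to 27 of the *Ngp* UMIs lay in a single nucleus, and *Ngp* was seen in 7, 4, 5 and 6 nuclei of the vehicle libraries and 5, 17, 15 and 9 nuclei of the DMXAA libraries, which overlapped. In WT, *Ngp* had 22, 21, 12 and 28 UMIs with vehicle and 31, 102, 454 and 45 with DMXAA, which also separated (log2 change 3.09 ± 0.87, edgeR adjusted p = 0.743), with most of the UMIs in DMXAA replicate 3. *Lcn2*, a siderophore-binding protein of neutrophils and reactive glia, chosen here after its values were seen, had 0, 1, 1 and 2 UMIs with vehicle and 5, 3, 6 and 10 UMIs with DMXAA, and it was in at most 4 nuclei of a library. In WT it had 0 to 3 UMIs with vehicle and 21 to 116 with DMXAA and rose by 5.51 ± 0.77 (edgeR adjusted p = 0.0405). The 6 listed granulocyte and monocyte markers summed to 4.83 to 5.44 CPM with vehicle and 5.32 to 7.15 CPM with DMXAA in *Ifnar1*-/- libraries, which overlapped. The 4 of them that were tested had log2 changes of 0.20 to 2.20 with a median of 0.51, and 1 was higher at an unadjusted p under 0.05, against 11.6% of all genes.

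**Figure D5:**
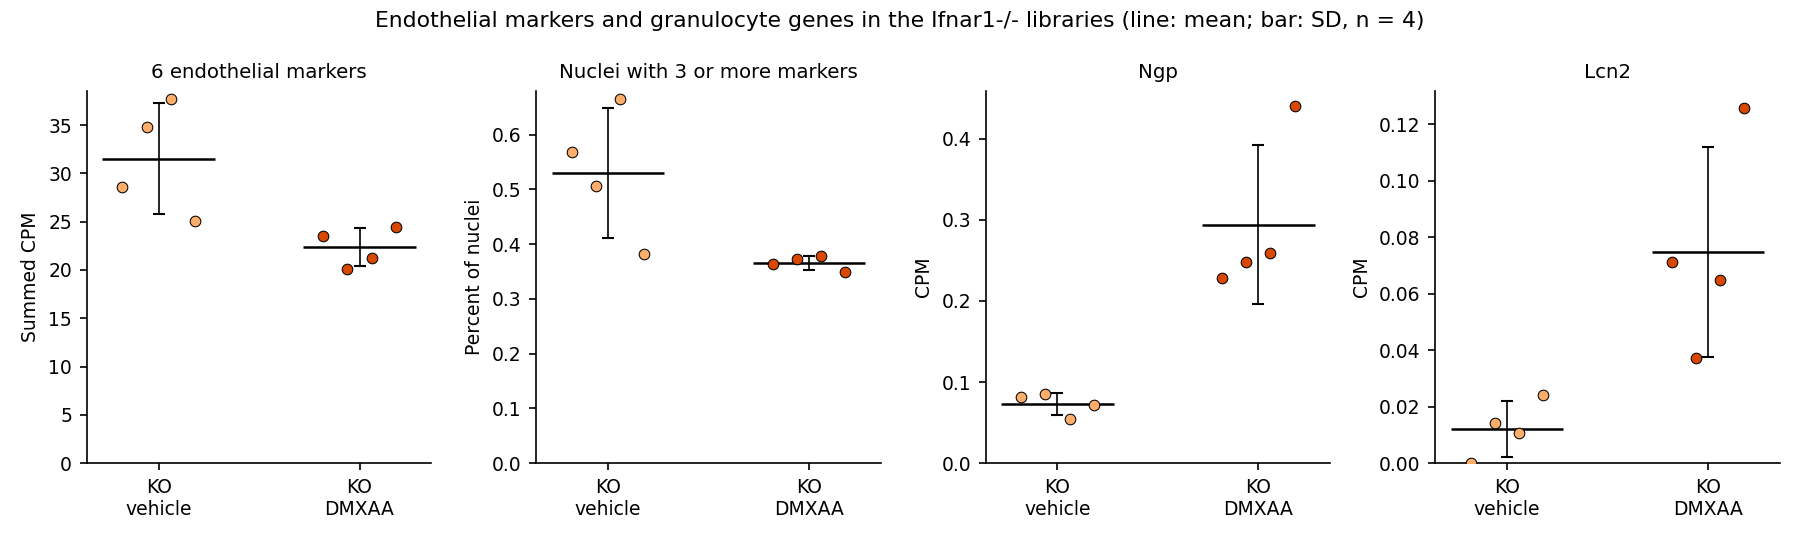
Summed level of 6 endothelial markers in CPM, percent of nuclei with 3 or more of them, and levels of *Ngp* and *Lcn2* in CPM in the *Ifnar1*-/- (KO) libraries, on linear axes from 0, with points for libraries, a line for the mean and a bar for the SD (n = 4). The endothelial sums are 25.1 to 37.7 CPM with vehicle and 20.1 to 24.4 CPM with DMXAA, and *Ngp* and *Lcn2* lie higher in every DMXAA library than in any vehicle library.

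In the glial lists edgeR called 0 genes. Of 12 homeostatic microglial genes tested, 3 were higher and 0 lower at an unadjusted p under 0.05, against 11.6% and 8.49% over all genes, and DESeq2 called 2 higher, against 3.27%. Their median log2 change was 0.15, against -0.01 over all genes tested. *Gpr34*, a lysophosphatidylserine receptor, was at 2.79, 2.8, 3.91 and 4.1 CPM with vehicle and at 5.31, 4.43, 5.28 and 5.46 CPM with DMXAA (log2 change 0.51 ± 0.12). *P2ry12*, a purinergic receptor of resting microglia, was at 16.2 to 26.6 CPM and 25.5 to 34.2 CPM (log2 change 0.43 ± 0.13). With the long-gene share as a covariate the log2 changes of *Gpr34* and *P2ry12* were 0.35 ± 0.17 and 0.15 ± 0.15, and with the length trend removed 0.39 ± 0.10 and 0.47 ± 0.14. *Gpr34* separated the groups and *P2ry12* overlapped at DMXAA replicate 2. Nuclei with at least 3 microglial markers were 3.46 to 3.92% with vehicle and 3.56 to 4.28% with DMXAA. Of the 6 oligodendrocyte precursor markers, 3 were higher and 0 lower at an unadjusted p under 0.05, against the same 11.6% and 8.49%. Nuclei with at least 3 of these markers were 2.18 to 2.55% with vehicle and 2.39 to 3.16% with DMXAA, which overlapped. The part of this share in the marker values was not tested. *Gpr17*, which marks precursors about to differentiate, was at 1.54, 1.24, 2.05 and 1.86 CPM with vehicle and at 2.84, 2.56, 3.59 and 3.6 CPM with DMXAA (log2 change 0.83 ± 0.16, edgeR adjusted p = 0.156), without overlap.

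The 14 reactive glial genes tested had a median log2 change of 0.02, with 1 higher and 2 lower at an unadjusted p under 0.05, beside those shares over all genes. *Hspb1*, a small heat shock protein, was at 0.405, 0.583, 0.68 and 0.577 CPM with vehicle and at 0.385, 0.223, 0.281 and 0.314 CPM with DMXAA (log2 change -0.99 ± 0.22, edgeR adjusted p = 0.156). All 4 DMXAA libraries of *Hspb1* lay below the vehicle libraries. These levels rested on 35 to 63 UMIs per vehicle library and 18 to 27 per DMXAA library. Up to 17 of them lay in a single vehicle nucleus. *Hspb1* was seen in 15, 12, 23 and 15 nuclei with vehicle and 16, 13, 15 and 15 with DMXAA, which overlapped. *Timp1*, an inhibitor of metalloproteinases, was at 0.583 to 0.697 CPM and 0.842 to 1.08 CPM (log2 change 0.52 ± 0.16), and *Cd44*, a hyaluronan receptor, was at 5.84 to 7.89 CPM and 2.5 to 6.25 CPM (log2 change -0.71 ± 0.24). The list thus held members on both sides of 0.

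In the remaining response lists edgeR called 0 genes, and the medians lay between -0.17 and 0.23. The interferon-γ and MHC class II genes had a median of 0.06 over 10 tested, with *Ciita*, the master activator of MHC class II, at 2.88 to 3.87 CPM with vehicle and 4.29 to 5.42 CPM with DMXAA (log2 change 0.43 ± 0.11, DESeq2 adjusted p = 0.0157). Autophagy and lysosome genes had a median of 0.07 over 21, with *Ctsd*, a lysosomal protease, at 0.31 ± 0.08. p53 targets had a median of 0.05 over 12, with *Bax*, a pore former of apoptosis, at 0.45 ± 0.11 and *Trp53inp1*, a stress-induced p53 partner, at -0.24 ± 0.07. Disease-associated microglial genes had a median of 0.13 over 12. Of these, 2 were higher and 0 lower at an unadjusted p under 0.05, against 11.6% and 8.49% of all genes. The 14 of them in the files summed to 137 to 173.5 CPM with vehicle and 180 to 224 CPM with DMXAA, without overlap, at a ratio of means of 1.37. *Apoe* alone was at 94.3 to 127 CPM and 132 to 173 CPM and made up most of this sum. Of the 12 tested, only *Apoe* separated the groups. It was named above among genes chosen for separating them, so the gap between the sums follows in part from that choice. Genes of the unfolded protein response had a median of 0.09 over 15 and heat shock genes one of 0.09 over 10. For hypoxia genes the median was -0.01 over 14, for glucocorticoid-responsive genes 0.05 over 18 and for cholesterol genes -0.05 over 22. Clock genes had a median of -0.01 over 18, with *Dbp*, a clock output factor, at 0.41 ± 0.10. Immediate early genes had a median of 0.23 over 20, of which *Jun* had an unadjusted p under 0.05 (log2 change 0.42 ± 0.16), and their summed level of 279.9 to 793 CPM with DMXAA enclosed the vehicle range of 386 to 514 CPM. With the long-gene share as a covariate the log2 changes of *Bax*, *Dbp*, *Ctsd* and *Jun* were smaller, at 0.15 ± 0.11, 0.17 ± 0.12, 0.16 ± 0.09 and 0.28 ± 0.23, and those of *Ciita* and *Trp53inp1* were 0.37 ± 0.15 and -0.29 ± 0.11. With the length trend removed the 6 were 0.28 ± 0.07, 0.23 ± 0.09, 0.22 ± 0.05, 0.23 ± 0.12, 0.48 ± 0.11 and -0.29 ± 0.07.

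*Mef2c*, a neuronal and microglial transcription factor, was at 412, 336, 372 and 336 CPM with vehicle and at 537, 368, 349.9 and 228 CPM with DMXAA. The vehicle values lay inside the DMXAA range, with a log2 change of -0.06 ± 0.21 (95% interval -0.52 to 0.40, edgeR adjusted p = 0.883). The sign turned to 0.12 without DMXAA replicate 4, which also had the lowest share of nuclei with subicular markers, 2.51% against 3.72 to 6.11% in the other 7. *Gria4*, an AMPA receptor subunit, *Pdzrn3*, a ubiquitin ligase, and *Dpp10*, a potassium channel partner, which stood in the same list, had log2 changes of -0.13 ± 0.10, -0.29 ± 0.25 and -0.24 ± 0.23. Of the 5 genes of that list 0 had an unadjusted p under 0.05 in *Ifnar1*-/- libraries, beside 11.6% higher and 8.49% lower over all genes. In WT the log2 change of *Mef2c* was -0.48 ± 0.26, and the interaction was 0.43 ± 0.36 (edgeR adjusted p = 0.782).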

How the data were processed

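Nuclei of mouse hippocampus were sequenced by 3′ single-nucleus RNA-seq (10x, v3.1). The deposited values are raw UMI counts per gene and barcode. The submitters' processing notes name Cell Ranger 3.1.0, Seurat 3.0 and mm10, the matrix headers Cell Ranger 6.1.2. Barcodes with at least 200 genes and at most 5% mitochondrial UMIs were kept, doublets were not removed, and counts were summed per library. No level was compared between genes. DMXAA was compared with vehicle within each genotype (4 libraries each) by edgeR 4.0.16 (quasi-likelihood test, TMM factors, filterByExpr, Benjamini-Hochberg adjustment) in R 4.3.3. Calls needed both a log2 change larger than 0.1 in size and an adjusted p under 0.05. The interaction was fitted over all 16 libraries. DESeq2 1.42.0 and limma 3.58.1 were alternatives, beside other size factors, filters, barcodes and left-out libraries. Genes for which DESeq2 gave no adjusted p count as not called. The scripts were tested on simulated data. Exact permutation tests of 4 against 4 libraries cannot go below p = 0.0286. Replicate numbers were given in accession order, and nothing states that the libraries of a group came from separate mice, so p-values measure the spread between libraries. Gene spans are from GENCODE annotation on GRCm38 (32235 of 32285 genes placed).

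Named genes were the 10 with the lowest unadjusted p in each direction among genes separating the *Ifnar1*-/- groups, the 5 interactions called with the largest difference per direction, the 3 genes of each list with the lowest p, the 10 listed ISGs with the largest called WT rise, and 9 genes of the pathway, of which those that a result turns on are printed. The libraries, the lists and the tests were chosen with earlier results of these data known. 1 gene is not reported here.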

Additional observations from a re-analysis of the deposited data

Results flagged for a closer look

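In the *Ifnar1*-/- groups, 17 of 280 sets of 4 libraries had 1 library far from the other 3, where chance gives about 1 in 20. Among genes, *Ngp* was high in DMXAA replicate 4 (0.44 CPM) and *Egln3*, an oxygen-sensing hydroxylase, was high there too (1.95 CPM). DMXAA replicate 2 was high for *Syn3* (216 CPM) and low for *Tbk1* (40.1 CPM) and *Gpr34* (4.43 CPM). DMXAA replicate 1 was low for *Bag3*, a co-chaperone (2.70 CPM), and high for *Fdft1*, squalene synthase (32.8 CPM). Vehicle replicate 4 was low for *Fdft1* (29.1 CPM), for *Npas2*, a clock transcription factor (181 CPM), and for the summed clock genes (772 CPM). *Slco1b2* was low in vehicle replicate 1 (1.63 CPM) and *Ackr1* in vehicle replicate 2 (2.49 CPM).

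Among sums, the interferon ligands and receptors were low in vehicle replicate 1 (193 CPM), the granulocyte and monocyte markers were high in vehicle replicate 2 (5.44 CPM) and the erythroid markers were high in vehicle replicate 1 (46.1 CPM). Of the library measures, DMXAA replicate 3 kept the most nuclei (9537), and vehicle replicate 2 had the largest share of barcodes over 5% mitochondrial UMIs (11.1%).

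The DMXAA effect differed between the genotypes for 11 genes by the interaction, of which 10 are given here. The *Ifnar1*-/- minus WT difference in log2 change was -3.71 for *Ddx60*, -2.73 for *Lgals3bp*, -2.69 for *Sp100*, -2.61 for *Iigp1*, -2.59 for *Slfn5*, -2.25 for *Eif2ak2*, -1.93 for *Trim30a*, -1.90 for *Xaf1*, -1.16 for *B2m* and 1.42 for *Fcrls*. Genotype coincides with age, so these differences cannot be told apart from age.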

How the results depend on the processing

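The count of 0 genes called in *Ifnar1*-/- libraries was 0 under each alternative but DESeq2 (1040), also without any single library. The ISG median stayed between -0.06 and 0.10, and the ratio of ISG sums between 1.01 and 1.05. The WT count of 23 and the interaction count of 11 were 46 and 18 with RLE factors, 136 and 129 with DESeq2, 35 and 18 with limma-trend, 48 and 20 with at most 4000 genes per barcode, 41 and 29 with the length trend removed and 74 and 74 with the long-gene share as a covariate. The WT count was 49 with no filter and 100 with all 16 libraries in the fit. Leaving out single libraries gave 0 to 68 WT calls and 3 to 34 interactions. The length and covariate alternatives were chosen after seeing the data. The causes were not tested.

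Of the *Ifnar1*-/- log2 changes of 90 named genes, 15 turned sign under some alternative. With the covariate they were 0.193 for *Ddx60*, -0.0419 for *Irf3*, -0.355 for *H2-Ab1*, 0.0188 for *Tsc22d3*, 0.0379 for *Zbtb16*, -0.0298 for *Junb*, -0.148 for *Btg2*, -0.00392 for *Xbp1*, 0.00178 for *Gria4*, -0.207 for *Oas2*, -0.0289 for *Ifnar1*, -0.162 for *Ccl5* and 0.0235 for *Nfkbia*. With the length trend removed they were 0.0376 for *Gria4*, -0.0297 for *Bst2*, -0.0179 for *Ifnar1* and 0.0691 for *Mef2c*. With at most 4000 genes per barcode they were 0.0305 for *Gria4*, -0.0261 for *Ifnar1* and 0.0712 for *Mef2c*. As log2 ratios of group means they were 0.0469 for *Nfkbia* and 0.0248 for *Mef2c*. Without each library in turn the estimates ran over ranges that crossed 0, with *Ddx60* -0.286 to 0.0553, *Bst2* -0.0328 to 0.401, *Oas2* -0.0397 to 0.308, *Ifnar1* -0.0194 to 0.032, *Nfkbia* -0.0951 to 0.0137 and *Mef2c* -0.271 to 0.116. In WT, leaving out each library (also looked at after seeing the data) gave medians of -0.0852 to 0.125 for genes spanning up to 10 kb and -0.143 to 0.185 above 300 kb, and log2 changes of -0.31 to 0.161 for *Cd81*, -0.327 to 0.168 for *Apoe* and -0.0334 to 0.185 for *Atg16l2*.

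No paired analysis was possible because the replicate numbers were given in accession order. Depth limits genes at a few UMIs per library, and over all genes the median half-width of the 95% interval was 0.28 on the log2 scale.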
